A study of Rattus norvegicus with 6 samples.

Results

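The rat miR-466 miRNAs, with the similarly built miR-297, were followed in the terminal hindgut of fetal rats with and without an anorectal malformation (ARM). Members were all miRNAs on the array whose names begin with rno-miR-466 or rno-miR-297, and 7 of the 758 miRNAs on the array met this. They were then selected on detection, without regard to group: a miRNA was kept when a probe of it had 0.5 or more of its spots well above background on 3 or more of 6 arrays. This left 4 members, miR-466b-2-3p, miR-466b-3p, miR-466b-5p and miR-466c-3p, among 230 miRNAs kept in the same way. The ARM group was 3 samples from fetuses with a malformation seen under the microscope, whose Sprague Dawley dams had been given ethylenethiourea (ETU, a compound that blocks thyroid peroxidase and is used in rats to induce ARM) on gestational day 10, by stomach tube, at 125 mg/kg. The control group was 3 samples from healthy fetuses whose dams had been given distilled water. All tissue was taken on embryonic day 20, as 1 cm of terminal hindgut, and its RNA was hybridised to 6 one-colour (Cy3) Agilent miRNA arrays. ETU exposure and the malformation are joined in the ARM group and cannot be told apart, and the labels give neither dam nor litter nor whether a sample is 1 animal. The p-values below therefore describe the spread between these samples, which may be partly technical.

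In the mouse, miR-466 belongs to a large rodent-specific block of repeated miRNA genes inside an intron of Sfmbt2, which encodes a Polycomb-group protein. The mouse Sfmbt2 gene is imprinted and expressed from the paternal allele in extra-embryonic tissue, and the mouse cluster is known for its part in placental development. A miRNA guides silencing of mRNAs mainly through its seed, the bases 2 to 8 from its 5′ end, and each precursor hairpin can give a mature miRNA from its 5′ arm (5p) and from its 3′ arm (3p).

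The sequences are shown because the 3p members are close to one another in sequence and yet differ in the seed. All 7 had a mature sequence in the RefSeq table (GRCr8), given here 5′ to 3′ with the seed in capitals. The 3 kept 3p miRNAs were built mostly of A and C (76.2% to 86.4% of bases).
miR-466b-3p: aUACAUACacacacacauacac
miR-466b-2-3p: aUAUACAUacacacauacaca
miR-466c-3p: uAUACAUGcacacauacacac
The fourth kept member was a 5p miRNA built mostly of G and U (77.3%).
miR-466b-5p: uAUGUGUGuguguauguccaug
The 3 members that were not kept were also rich in G and U (69.6% to 86.4%).
miR-466c-5p: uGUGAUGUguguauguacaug
miR-466d: aUGUGUGUguauguucuuuugu
miR-297: aUGUAUGUgugcauguaugcaug
No seed was shared: the 7 members had 7 distinct seeds, and no other array miRNA with a RefSeq sequence carried any of them. Among the 3p members the likeness was high. miR-466b-2-3p could be turned into miR-466c-3p by 3 single-base edits and into miR-466b-3p by 4, with unbroken shared runs of 12 and 13 bases. miR-466b-3p and miR-466b-5p, the arms of one hairpin, were 16 single-base edits apart and held perfectly complementary runs of 17 bases. Binding of one 3p miRNA to the probes of another was not tested.

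The 4 miR-466 precursors lie within Sfmbt2 (GRCr8, chromosome 17, bases 72844037 to 73038599), on the minus strand. Mir466d lies at chr17:72913004-72913096, Mir466c at chr17:72927601-72927679, Mir466b-2 at chr17:72942463-72942544 and Mir466b-1 at chr17:72945493-72945578, so that the whole group spans 32575 bases. miR-466b-5p is identical in Mir466b-1 and Mir466b-2, whereas the 3p arms of those precursors differ: miR-466b-3p comes from Mir466b-1 and miR-466b-2-3p from Mir466b-2. A level of miR-466b-5p is thus the sum over both. Mir297 is on another chromosome, at chr10:98715682-98715747, within the bounds of the long non-coding RNA gene LOC102549836, so in this annotation it is not part of the Sfmbt2 group.

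The array called miR-466b-3p, miR-466b-2-3p and miR-466b-5p present on all 6 arrays. miR-466c-3p was present on 2 of 3 ARM arrays and on all 3 control arrays, the member nearest to the detection threshold. The members outside it were far from it: for miR-297, miR-466c-5p and miR-466d none of 288 spots over the 6 arrays was well above background, and their probe means lay between -4.91 and 5.60 intensity units after background subtraction. A probe for the 3p arm of Mir466c was thus detected on 5 arrays, and one for its 5p arm on 0. As binding of one 3p miRNA to the probes of another was not tested, this does not show which precursor gave the signal. Nothing can be said of the groups for the 3 miRNAs that were not kept. Which values kept the members is a description, not a result. No miRNA named miR-467 or miR-669, as relatives of miR-466 in the mouse cluster are, was among the 758 read here.

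No member differed between malformed and healthy hindgut beyond the spread between arrays, but the ARM arrays themselves stood far apart, and in the same order for all 4 members. Levels are log2 intensities after scaling each array, and differences are ARM minus control on that scale. miR-466b-5p was at 3.54, 6.72 and 6.71 on ARM arrays 1 to 3, against 5.07, 4.46 and 4.01 on control arrays 1 to 3. ARM arrays 2 and 3 thus lay above every control array and ARM array 1 below every one of them. Its means were 5.66 ± 1.83 in ARM and 4.51 ± 0.53 in control (SD, n = 3 each), a difference of 1.15 (SE 0.83, 95% interval -0.80 to 3.09; limma, adjusted p = 0.294).

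miR-466c-3p was at 3.70, 6.48 and 6.03 on ARM arrays 1 to 3, against 4.68, 4.20 and 4.22 on control arrays 1 to 3. The order was the same, and ARM array 1 was the only one on which neither of its probes was detected. The difference was 1.04 (SE 0.67, 95% interval -0.52 to 2.60; limma, adjusted p = 0.242). miR-466b-2-3p, the 3p arm of Mir466b-2, was at 4.55, 6.87 and 6.35 on ARM arrays 1 to 3, against 5.14, 4.66 and 5.0 on control arrays 1 to 3. The control arrays lay within 0.48 of each other while the ARM arrays spanned 2.32, which is a 4.98-fold range between ARM arrays 2 and 1. The difference was 0.99 (SE 0.55, 95% interval -0.31 to 2.29; limma, adjusted p = 0.202).

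miR-466b-3p, the 3p arm of Mir466b-1, was at 6.44, 8.66 and 8.08 on ARM arrays 1 to 3, against 7.99, 7.36 and 7.11 on control arrays 1 to 3. Here too ARM array 1 was the lowest of the 6, but ARM array 3 and control array 1 were close. The difference was the smallest of the 4, at 0.24 (SE 0.55, 95% interval -1.05 to 1.53; limma, adjusted p = 0.746), and it was -0.07 without scaling between arrays. For all 4 members the intervals hold both no change and changes of more than 1 log2 unit, so these arrays do not show that the levels were alike. In bulk tissue fewer cells of a type and less RNA per cell cannot be told apart.

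**Figure D1:**
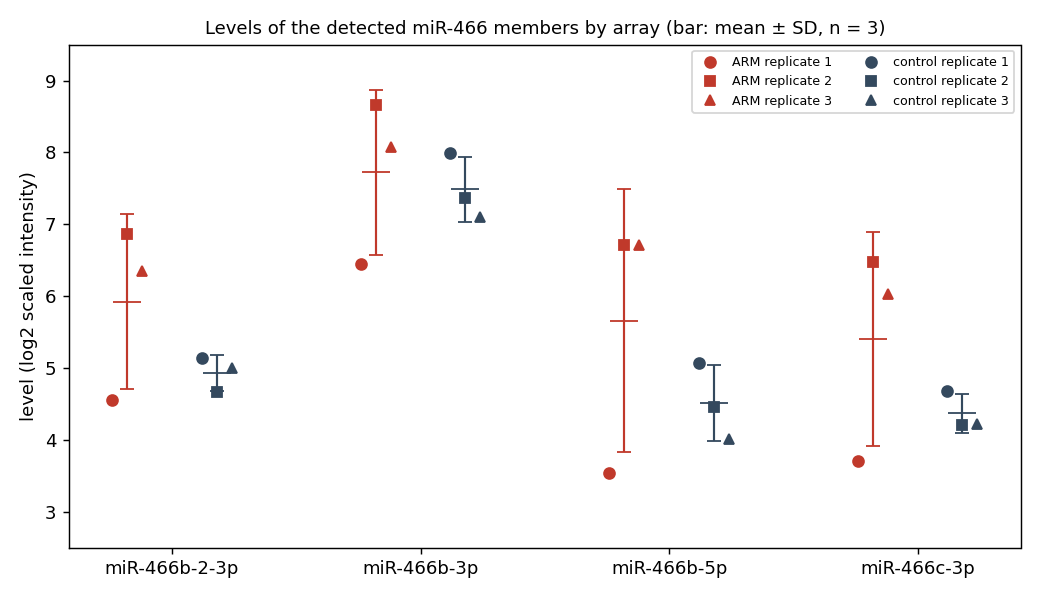
Level (log2 scaled intensity) of the 4 detected miR-466 members on each array, with ARM left of control, a symbol for each replicate, and a bar for the mean ± SD of 3 arrays. In each member ARM replicate 1 is the lowest of the 6 arrays and ARM replicates 2 and 3 are the highest.

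In all, 0 of 4 members passed the limma test in either direction, and 0 had an unadjusted p below 0.05. Over all 230 tested miRNAs 13.5% passed, 2.17% higher and 11.3% lower in ARM, and an unadjusted p below 0.05 was reached by 94. All 4 members had a positive difference, as did 137 of 230 miRNAs, and the median was 1.01 over the members and 0.17 over all tested. The groups overlapped for all 4 members, whereas they did not overlap for 48.7% of the 230.

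The members spread widely within ARM. The SD over the ARM arrays was 1.83 for miR-466b-5p, the highest of the 230 tested miRNAs, 1.49 for miR-466c-3p (rank 5), 1.22 for miR-466b-2-3p (rank 9) and 1.15 for miR-466b-3p (rank 10). The value for miR-466b-5p includes its dimmer probe, which was not well above background on ARM array 1. Its brighter probe alone had an ARM SD of 1.57, below the 1.69 of miR-122-5p. Neither probe of miR-466c-3p was detected on ARM array 1. Its level of 3.704 there lay below the lowest detected probe of that array (3.815), so its SD also rests on a level near background. The median ARM SD was 1.35 over the members and 0.20 over all tested miRNAs. Over the control arrays the medians were 0.36 and 0.29. The order with ARM array 1 lowest and ARM arrays 2 and 3 above all controls held for 4 of 4 members and for 3.48% of all tested miRNAs, 8 in all with the members counted. For miR-466b-3p it held only after scaling: before, its probes read lower on ARM array 3 than on control array 1. This order was noticed in the data and is given as a description.

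**Figure D2:**
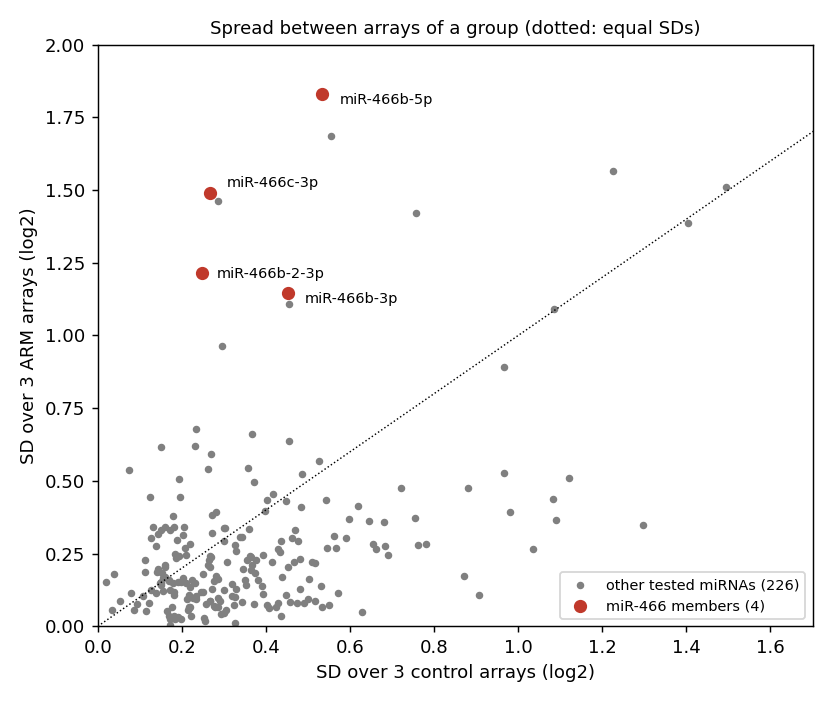
SD over the 3 ARM arrays (vertical, log2) against the SD over the 3 control arrays (horizontal, log2), with a point for each of 230 tested miRNAs. The 4 miR-466 members, in red, lie between 1.15 and 1.83 on the vertical axis, where most other miRNAs lie below 0.5.

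In the fit as reported, calls for the members appeared only with ARM array 1 left out. Without ARM replicate 1, and so with 2 ARM arrays, 3 of 4 members passed as higher in ARM, against 1.30% of all tested miRNAs: those 3 were the only ones higher there, and 3.04% were lower. miR-466b-5p differed by 2.20 (SE 0.34, adjusted p = 0.0161 by limma), miR-466c-3p by 1.89 (SE 0.28, adjusted p = 0.0161 by limma) and miR-466b-2-3p by 1.68 (SE 0.28, adjusted p = 0.0176 by limma). miR-466b-3p, at 0.88 (SE 0.34), did not pass (limma, adjusted p = 0.127). Without any one of the other 5 arrays no member passed. Leaving out ARM replicate 2 brought miR-466b-5p to 0.62, miR-466c-3p to 0.50 and miR-466b-2-3p to 0.52, and miR-466b-3p to -0.22. Leaving out ARM replicate 3, the only array on slide 2, brought miR-466b-5p to 0.62 as well. The within-slide values, from 2 ARM and 3 control arrays on slide 1, are these same ones: 0.62 for miR-466b-5p, 0.72 for miR-466c-3p, 0.78 for miR-466b-2-3p and 0.06 for miR-466b-3p.

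**Figure D3:**
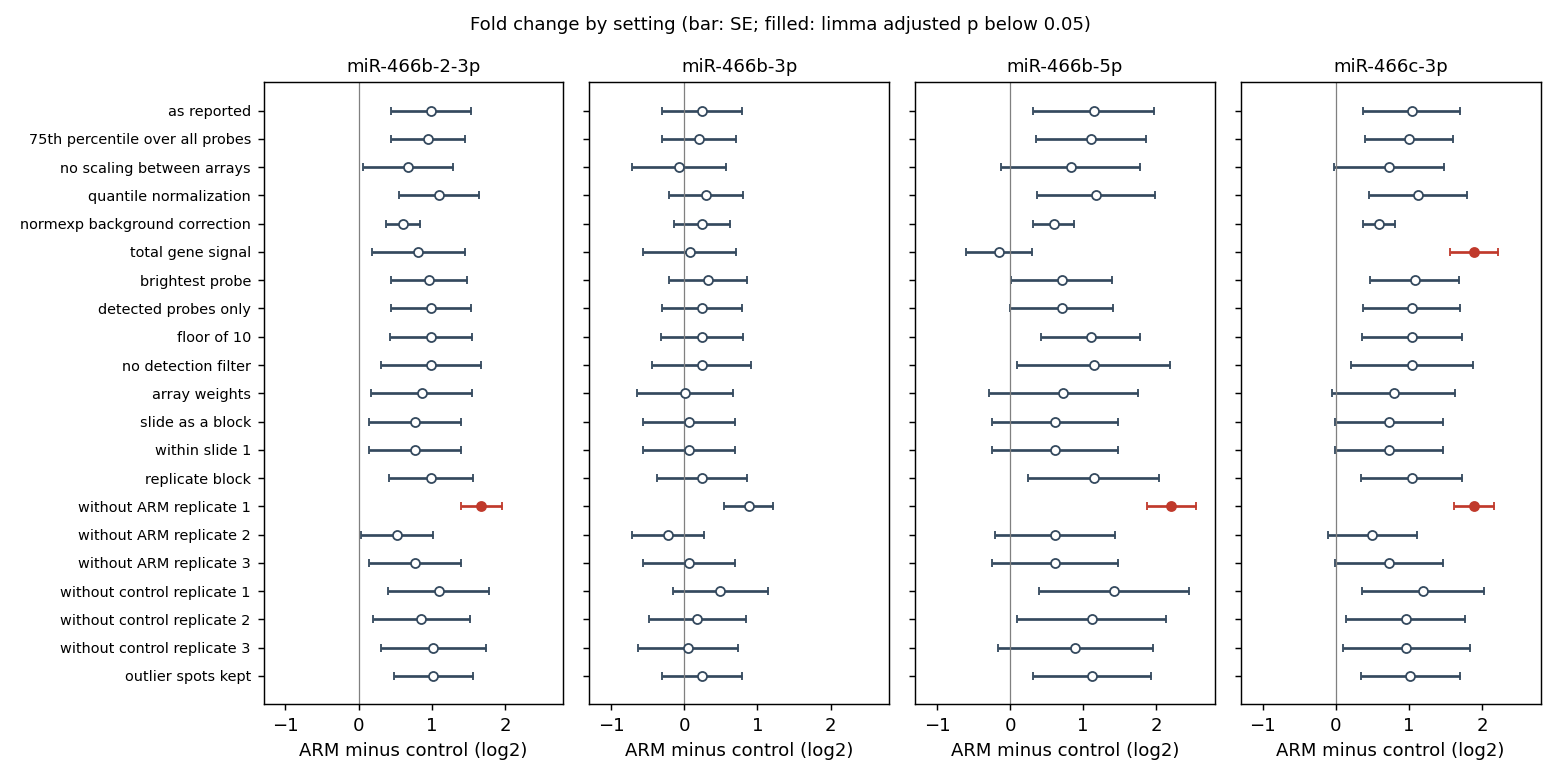
Difference of each member, ARM minus control (log2, bar for the SE), as reported and under each other setting, one per row, with filled red points where the limma adjusted p is below 0.05. miR-466b-5p, miR-466b-2-3p and miR-466c-3p pass without ARM replicate 1, and miR-466c-3p also with the total gene signal.

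The spread between ARM arrays was seen in the readings of every probe, though not every probe was detected on ARM array 1. All 10 probes of the 4 members had ARM array 1 below and ARM arrays 2 and 3 above all 3 controls after scaling. Before scaling the 4 probes of miR-466b-3p did not, as each read lower on ARM array 3 than on control array 1. The dimmer probe of miR-466b-5p and both probes of miR-466c-3p were not detected on ARM array 1. Their place below the controls is thus an order of levels near background. That dimmer probe was not detected on any control array either. The 4 probes of miR-466b-3p, given in unscaled processed intensity, read 67.8 to 89.7 on ARM array 1, 326 to 428 on ARM array 2 and 227 to 302 on ARM array 3, against 290 to 350 on control array 1, 180 to 218 on control array 2 and 120 to 147 on control array 3. The 4 probes thus ranked the 6 arrays in the same way. Spots of one probe agreed closely once those flagged as outliers were left out, which by itself can lower their spread. Up to 3 of 8 spots of a detected probe were left out on an array. Where a probe of miR-466b-3p was detected, the coefficient of variation over its spots had a median of 3.63% and a maximum of 7.03%. It reached 11.0% for miR-466b-2-3p, 8.46% for miR-466b-5p and 15.9% for miR-466c-3p. These values cover spots within an array only, not labelling, hybridisation or differences between samples.

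The probes of miR-466b-5p disagreed in size. The brighter one was detected on all 6 arrays, at 27.9, 189 and 199 intensity units on ARM arrays 1 to 3, against 118, 78.5 and 49.9 on the controls. The dimmer one was detected only on ARM arrays 2 and 3, at 46.5 and 48.7, and read 3.64 on ARM array 1, against 14.6, 8.54 and 4.72 on the controls. The brighter probe read 4.08 times the dimmer on both of those ARM arrays, 7.66 times on ARM array 1, and 8.12 to 10.6 times on the controls. The brighter probe alone gave a difference of 0.71 and the dimmer 1.58, so the value of 1.15 for miR-466b-5p includes a probe that was not above background on 4 of 6 arrays.

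The 2 probes of miR-466c-3p gave 1.00 and 1.08, and those of miR-466b-2-3p gave 1.02 and 0.96. For miR-466c-3p the software's own total gene signal ran against its probes on ARM array 1: it was 103, 87.1 and 67.3 on ARM arrays 1 to 3, against 33.6, 23.1 and 19.7 on the controls, although the probes of miR-466c-3p read 8.79 and 14.4 on ARM array 1, where 1 spot was well above background. With that measure miR-466c-3p passed as higher in ARM (1.89, SE 0.32; limma, adjusted p = 0.0300), in a fit that called 1.74% of miRNAs higher. miR-466b-5p had total gene signals of 95.6, 127 and 135 on ARM arrays 1 to 3, against 70.6, 247 and 167 on the controls, and its difference there was -0.16 (SE 0.45).

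**Figure D4:**
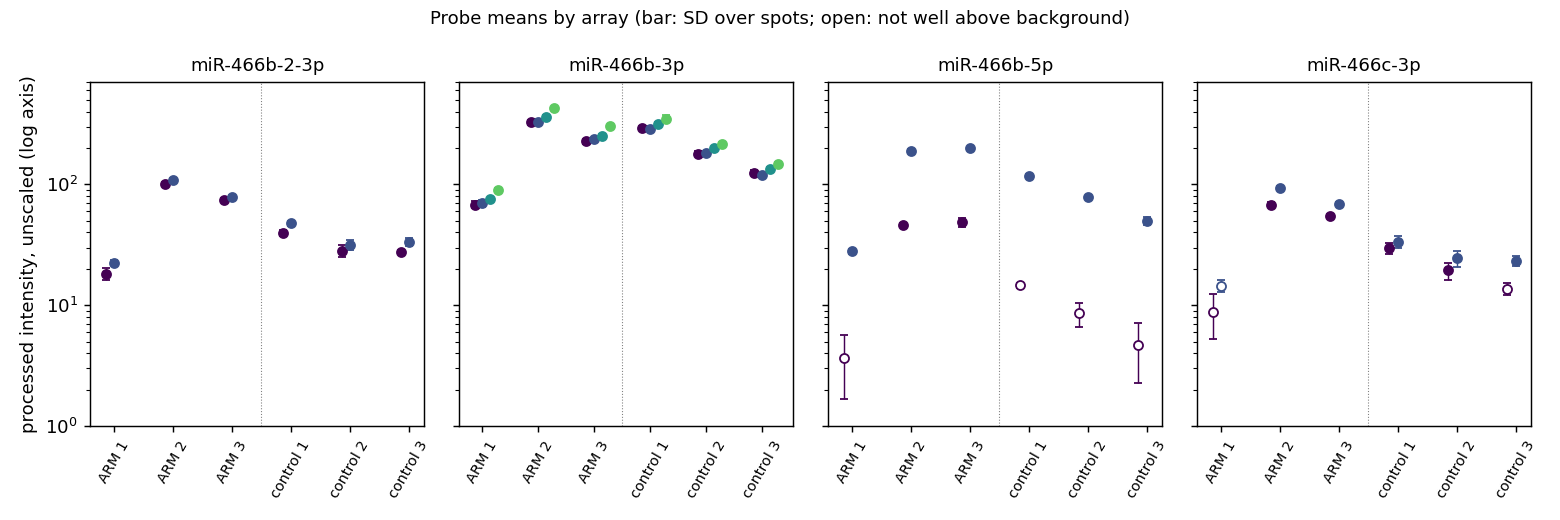
Mean processed intensity of each probe before scaling (vertical, log axis) on each array, ARM left of control, with a colour for each probe, a bar for the SD over its spots, and open points where it was not well above background. Every probe is dimmest on ARM array 1, where the points of both miR-466c-3p probes are open. The dimmer probe of miR-466b-5p is above background on ARM arrays 2 and 3 only.

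The members moved together over the 6 arrays. Pearson's r between their levels ran from 0.863 (miR-466b-2-3p with miR-466b-3p) to 0.990 (miR-466b-2-3p with miR-466c-3p), over 6 arrays that they share. miR-466b-5p, which is 13 to 16 single-base edits from each 3p member, had an r of 0.922 to 0.982 with them. The lowest r was thus that of the 3p arms of Mir466b-2 and Mir466b-1, precursors that have 2948 bases between them.

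Set against miR-466b-3p on the same array, the other 3 members were higher on every ARM array than on every control array. This comparison was chosen after the values were seen, and it does not depend on the scaling factor of an array. The sizes below depend on the probes and are not ratios of amounts, so only their change between arrays can be read. For miR-466b-2-3p the level minus that of miR-466b-3p was -1.89, -1.79 and -1.73 on ARM arrays 1 to 3, against -2.85, -2.70 and -2.11 on control arrays 1 to 3. The ARM arrays were within 0.17 of each other, even though the level itself had spanned 2.32. Its ARM minus control difference was 0.75.

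For miR-466c-3p the values were -2.74, -2.18 and -2.04 on ARM arrays 1 to 3, against -3.31, -3.16 and -2.88 on controls, a difference of 0.80. The value on ARM array 1 comes from probes that were not detected there, and it lies near that of control array 3. For miR-466b-5p they were -2.90, -1.94 and -1.36, against -2.91, -2.91 and -3.10, a difference of 0.91 that came from ARM arrays 2 and 3, since ARM array 1 was level with the controls. As the comparison was picked because the groups did not overlap, it is given with no test. Over the 229 miRNAs other than miR-466b-3p, all ARM arrays were above all controls on this measure for 1.31%, which are these 3, and the groups did not overlap in one direction or the other for 6.11%. Subtracting miR-466b-3p, whose own levels overlap between the groups, brings its order into every such difference, so nothing about the members is read from these shares. With normexp background correction the 3 differences were 0.36, 0.35 and 0.36 and the groups overlapped. For miR-466b-5p they also overlapped with the brightest probe of each miRNA (0.38), with detected probes only (0.47) and with the total gene signal (-0.23).

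**Figure D5:**
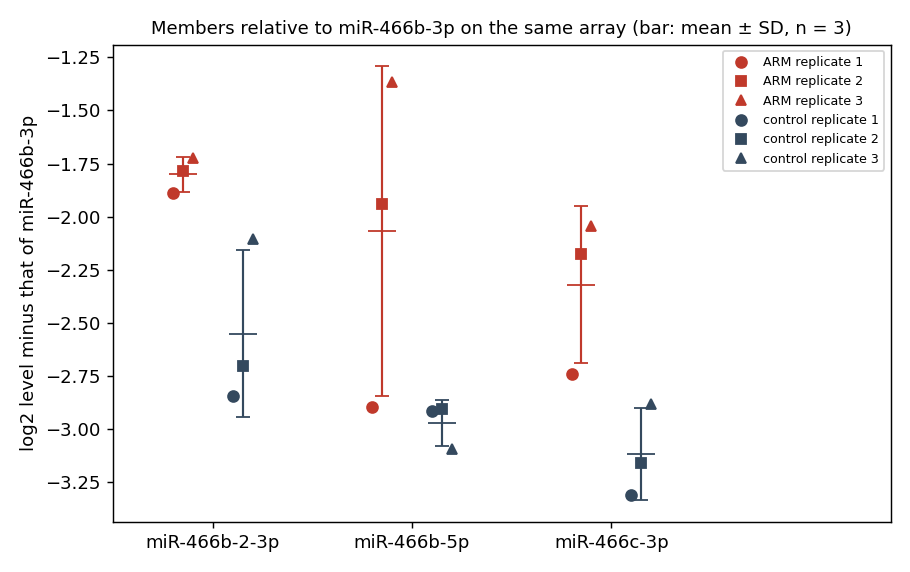
Log2 level of 3 members minus that of miR-466b-3p on the same array, ARM left of control, with a symbol for each replicate and a bar for the mean ± SD of 3 arrays. For miR-466b-2-3p and miR-466c-3p the ARM arrays lie above the controls, with ARM replicate 1 of miR-466c-3p at -2.74 close to control replicate 3 at -2.88, and for miR-466b-5p ARM replicate 1 is level with them.

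The miRNAs outside the family whose levels over the 6 arrays were most like the mean of the 4 members were miR-667-3p (Pearson's r = 0.874), miR-465-5p (0.868), miR-1839-3p (0.859), miR-30b-3p (0.847) and miR-298-5p (0.788), out of 226 with a median r of 0.13. miR-465-5p, of a rodent miRNA family on chromosome X, was at 2.68, 4.68 and 5.53 on ARM arrays 1 to 3, against 4.27, 3.70 and 4.03 on control arrays 1 to 3. It thus shared the order of the members, ARM array 1 lowest and ARM arrays 2 and 3 highest. In all, 3 of the 5 did, with miR-667-3p and miR-1839-3p the others, but for these the order rests on little. On ARM array 1 miR-667-3p was at 3.733, all but level with 3.739 and 3.746 on control arrays 1 and 2. It was detected on 2 ARM and 3 control arrays. miR-1839-3p was detected on 1 ARM and 2 control arrays, and its levels on the 6 arrays, from 2.44 to 3.34, lay near background. miR-465-5p was detected on 2 ARM and 2 control arrays, and its level on ARM array 1 lay below the lowest detected probe there (3.815). miR-667-3p, from the imprinted Dlk1-Dio3 region on chromosome 6, was at 3.73, 4.78 and 4.84 on ARM arrays, against 3.74, 3.75 and 4.14 on controls. The others varied less. miR-298-5p lay between 2.53 and 3.07 on all 6 arrays and was detected on 1 ARM and 2 control arrays. None of the 5 differed between the groups by the limma test (adjusted p from 0.202 to 0.737).

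The 6 other tested miRNAs with repeat-like sequence did not show this order. Repeat runs of 6 bases, either UGUGUG or its shifted form GUGUGU, or else the complementary kinds ACACAC and likewise CACACA, were searched in the mature strand only, where they can overlap one another. They were held by 27 of 685 array miRNAs with a RefSeq sequence (3.94%), of which 7 were the members. Of the other 20, 6 were tested, 0 passed as higher, 2 as lower and 4 did not pass, with a median difference of -0.50. Their mean level was 5.91, 4.94 and 5.77 on ARM arrays 1 to 3, against 7.30, 7.19 and 6.55 on the controls. The 2 that passed as lower are also in the striated muscle list below, and this mean includes them. miR-206-3p, known from skeletal muscle, fell by 4.11 (SE 0.87; limma, adjusted p = 0.0385), and miR-342-3p had the most positive difference, 0.31 (adjusted p = 0.216 by limma). None of the pattern neighbours with a RefSeq sequence, 4 of 5, was among the 27.

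The tissue could hold other cell types, whose marker lists are given beside the members. Of 8 lists, 2 (erythroid and leukocyte) had ARM array 1 lowest, and 0 had ARM array 1 lowest with ARM arrays 2 and 3 highest in the mean level of the list. All 9 miRNAs of the intestinal epithelium list and both of the smooth muscle list (miR-143-3p and miR-145-5p) were among those tested. Of the lists, 4 of 5 striated muscle miRNAs, 2 of 2 erythroid ones and the 1 liver miRNA passed as lower in ARM, and none of the other lists had a miRNA that passed. The epithelial mean was 6.82, 7.22 and 6.60 on ARM arrays 1 to 3, against 4.70, 6.15 and 6.34 on control arrays 1 to 3. All ARM arrays were above all controls in that mean, and the list's median difference was 1.03, beside 1.01 for the members, though 0 of 9 passed. The striated muscle mean was 4.96, 3.85 and 5.10 on ARM arrays, against 8.17, 7.91 and 6.32 on controls. The leukocyte mean was 3.62, 3.67 and 4.25 on ARM arrays, against 3.95, 3.78 and 3.75 on controls, from 3 tested miRNAs of 4, and the neuronal and glial list had 1 tested of 5. The erythroid mean ran from 4.97 to 5.44 on ARM arrays, against 6.43 to 7.35 on controls, the smooth muscle mean from 7.62 to 7.88, against 6.91 to 7.71, and the mesenchymal mean from 9.26 to 9.56, against 9.61 to 9.96. The liver miRNA miR-122-5p ran opposite to the members within ARM, at 4.44, 1.09 and 2.45 on ARM arrays 1 to 3, against 6.82, 7.74 and 6.74 on controls. The part of these cell types in the members' levels and spread was not tested.

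For the probes detected on every array, the 75th percentile before scaling was 203, 210 and 221 on ARM arrays 1 to 3, against 290, 278 and 225 on control arrays 1 to 3, and 211, 209 and 246 miRNAs were detected on ARM arrays, against 235, 241 and 207 on controls. Over the 230 tested miRNAs, which do not count as independent replicates, ARM arrays correlated with each other at 0.947 to 0.970, control arrays with each other at 0.941 to 0.972, and ARM with control arrays at 0.791 to 0.960. ARM array 1 correlated with ARM arrays 2 and 3 at 0.947 and 0.956, and with control arrays 1 to 3 at 0.867, 0.913 and 0.960. ARM array 2 correlated with control arrays 1 to 3 at 0.791, 0.822 and 0.915, and ARM array 3 at 0.857, 0.872 and 0.944. ARM array 1 was thus the ARM array nearest to each control array, and nearer to control array 3 than to either other ARM array. The part of this in the members' low levels on ARM array 1 was not tested. ARM arrays 1 and 2 were on the same slide, and the similar ARM arrays 2 and 3 on different ones. No spot was saturated, and precision is limited throughout by there being 3 arrays a group.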

How the data were processed

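MicroRNA levels were read from 6 one-colour arrays, 3 ARM and 3 control, grouped and numbered by the sample titles. The deposited intensity values are, per the file headers, output of Agilent Feature Extraction 10.7.1.1 after background subtraction per spot and spatial detrending. No scaling between arrays had been applied, and the deposited value table held the same intensity as the scanner files (largest difference 0). Control spots and spots flagged as outliers were left out, the spots of a probe were averaged, and arrays were brought to a common 75th percentile of the 300 probes that were detected on every one. Values under 1 were set to 1 before taking log2, and the probes of a miRNA were averaged, including those not above background on an array. Groups were compared by limma 3.58.1 in R 4.3.3 over all 230 tested miRNAs, two-sided, calling adjusted p-values (Benjamini-Hochberg) under 0.05; the fit was tested on simulated data. Outlier-flagged spots were also kept in one alternative, chosen after seeing the data. Sequences and loci are from RefSeq tables of GRCr8. The miRNAs named are all members, the 5 nearest in pattern, and the extremes of the lists, plus miR-122-5p. The members and lists were chosen with earlier results of these data known. Replicate numbers are shared between groups, but same-numbered samples did not deviate together (r from -0.28 to -0.07).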

Additional observations from a re-analysis of the deposited data

How the results depend on the processing

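No member passed the limma test as reported or in 19 of 21 alternatives. The exceptions were the total gene signal of the scanner software (1 member, miR-466c-3p) and leaving out one array at a time. There the count ran from 0 to 3, with 3 without ARM replicate 1, the lowest array for each member. Not all 21 are distinct. The deposited value table repeats the unscaled fit, and slide as a block, within slide 1 and without ARM replicate 3 gave the same values. With normexp background correction 2 members, miR-466b-2-3p and miR-466c-3p, had an unadjusted p below 0.05 by limma, though none passed. The SE of miR-466b-5p was then 0.28 and that of miR-466c-3p 0.22. The median difference of the members stayed positive, from 0.45 to 1.78 over the alternatives. miR-466b-3p changed sign without scaling and with the deposited value table, which is unscaled (-0.072 in both), and ran from -0.22 to 0.88 with one array left out. miR-466b-5p was at -0.16 with the total gene signal; the cause was not tested. Calls over all tested miRNAs numbered 16 with normexp background correction, 87 with array weights and 0 to 92 with one array left out. They numbered 0 by limma without a detection filter, with slide as a block, within slide 1, and with the replicate block. The counts at an unadjusted p below 0.05 were then 134, 78, 78 and 73. The labels do not say whether the replicate numbers pair the samples, and same-numbered samples did not deviate together. With the numbers as a block, the members differed by the same amounts and none passed. The 0 calls over all tested miRNAs with this block are not read as a weaker effect. Levels near background limit miR-466c-3p and the dimmer probe of miR-466b-5p.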
